A study of Homo sapiens with 2 samples.

Results

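GDF15 and 9 genes of the stress response that runs through the transcription factor ATF4 were examined in HepG2, a human liver cancer cell line. The 10 genes are GDF15, PPP1R15A, DDIT3, TRIB3, CHAC1, ASNS, ATF3, ATF4, ATF5 and SESN2. They were chosen by name with their levels in these libraries already known, so their values are a description and carry no test. Of these, 9 had a transcript in the table and 8 reached a mean of 1 TPM over both libraries, among 11582 genes that did so and 34237 named genes in all. TPM is a level divided by transcript length and scaled to 1000000 in each library, and a gene's level is the sum over its transcripts.

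The study asked which transcripts differ when SAMD4B, a relative of the Drosophila RNA-binding protein Smaug, is overexpressed. Both libraries are polyadenylated RNA from HepG2 with a doxycycline (Dox)-inducible SAMD4B cassette, 1 from cells kept without Dox (uninduced) and 1 from cells given 1 µg/ml Dox for 48 h (induced). With 1 library in each group there is no spread between replicates and no p-value, and each difference is between single libraries. Cells with Dox but no cassette were not analysed here, so effects of Dox and of SAMD4B cannot be told apart. In bulk RNA a lower level in every cell and fewer cells with the transcript cannot be told apart either.

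SAMD4B itself stood at 47.5 TPM uninduced and 261 TPM induced, a ratio of estimated fragments of 7.46 (95% counting interval 6.98 to 7.98). Estimated depth was 18507974 fragments uninduced and 23779755 induced, counted only on transcripts of at least 600 nt that could be given a gene. All 10 liver line markers were detected in both libraries, with ALB at 445 and 407 TPM and AFP at 13406 and 12140 TPM. Only 1 of the 10 was higher in the induced library and none differed by 1.5-fold, with a median log2 fold change of -0.21 and a sum of 25397 TPM uninduced and 22839 TPM induced. Of 12 markers of other cell types, 5 were listed at 0 in both libraries, and their summed level was 1661 TPM uninduced and 1794 TPM induced, nearly all of it LYZ at 1583 and 1742 TPM. ACTA2, a smooth muscle actin, was the 1 marker of this list past 1.5-fold, at 61.3 TPM uninduced and 36.7 TPM induced. The part of either marker list in the results below was not tested.

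When eIF2 is phosphorylated by one of its kinases, general translation drops while the ATF4 mRNA is translated more, because short reading frames upstream of its coding sequence hold ribosomes back under normal conditions. ATF4 then binds, often together with a C/EBP protein, at composite elements of genes for amino acid supply and for further stress factors, among them DDIT3 (CHOP), ATF3, TRIB3 and CHAC1. GDF15, a secreted member of the TGF-beta superfamily that acts on the hindbrain receptor GFRAL, is a product of this response and also of other factors such as EGR1. Much of this regulation of ATF4 is translational, which RNA levels do not measure.

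Short promoter sequences are shown first, because the response is named for a factor that binds DNA. The promoters of all 10 genes were found in RefSeq (GRCh38.p14), in 18 windows of 300 bases, each from 250 bases before a transcription start to 50 after it. The C/EBP-ATF composite element, searched as TGATGNAA on both strands, occurred in CHAC1, ASNS and ATF3, 3 of the 10 genes, and in 4.46% of the 27305 genes with a window. Genes differ in their number of windows, and by window the element was in 3 of 18, against 3.62% of all 35116. The full cyclic AMP response element TGACGTCA occurred in PPP1R15A alone among the 10, and in 2.25% of all genes. Capitals mark the motif in each sequence, written 5′ to 3′ on the strand of the gene, and the CHAC1 match reads as the element on the opposite strand.
ASNS, chr7:97872459-97872486 (−): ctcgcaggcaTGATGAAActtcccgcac
ATF3, chr1:212565176-212565263 (+): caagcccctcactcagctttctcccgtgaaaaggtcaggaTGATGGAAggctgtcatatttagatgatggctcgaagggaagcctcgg
CHAC1, chr15:40953252-40953279 (+): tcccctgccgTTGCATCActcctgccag
PPP1R15A, chr19:48872353-48872380 (+): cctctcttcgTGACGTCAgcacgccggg
The match began 68 bases before the start site in ASNS, 191 in ATF3, 209 in CHAC1 and 58 in PPP1R15A. The ASNS and CHAC1 stretches also overlap an annotated exon, and each of these genes has a transcript that starts further upstream. The ATF3 match lies at the most upstream start of that gene, from which both annotated transcripts were listed at 0 in both libraries, and the main measured forms start at bases 212608670 and 212615178. AP-1 elements (TGANTCA) were found in DDIT3 and ATF5, against 9.37% of all genes, and an EGR element (GCGNGGGCG) in ATF5, against 11.2%. No window of GDF15, TRIB3, ATF4 or SESN2 held any of these motifs, which says only that these letters are not in those windows. The ER stress response element, searched by its standard consensus, was in none of the 10 genes and in 0.0916% of all genes. With so small a share, its absence says nothing about the 10.

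Of the 8 genes with a level, GDF15 and PPP1R15A were at least 1.5-fold higher in the induced library and none was at least 1.5-fold lower. Fold changes are on the scale of log2(TPM + 1), which understates the change of low genes. Among all 11582 genes compared, 5.32% passed 1.5-fold upward and 3.9% passed it downward, and since the genes were chosen on these values nothing is read from the comparison. Both genes were also past 2-fold, as were 1.62% of all genes. The median log2 fold change of the 8 genes was 0.22, against 0.02 for all genes compared. ATF4 enters these counts with only part of its level, as described with that gene. The summed level without ATF4 was 295 TPM uninduced and 551 TPM induced, and GDF15 made up 77.6% of that difference of 256 TPM. The other 6 genes with a level stayed inside a 1.5-fold range, ATF4 by its matched transcripts alone.

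**Figure D1:**
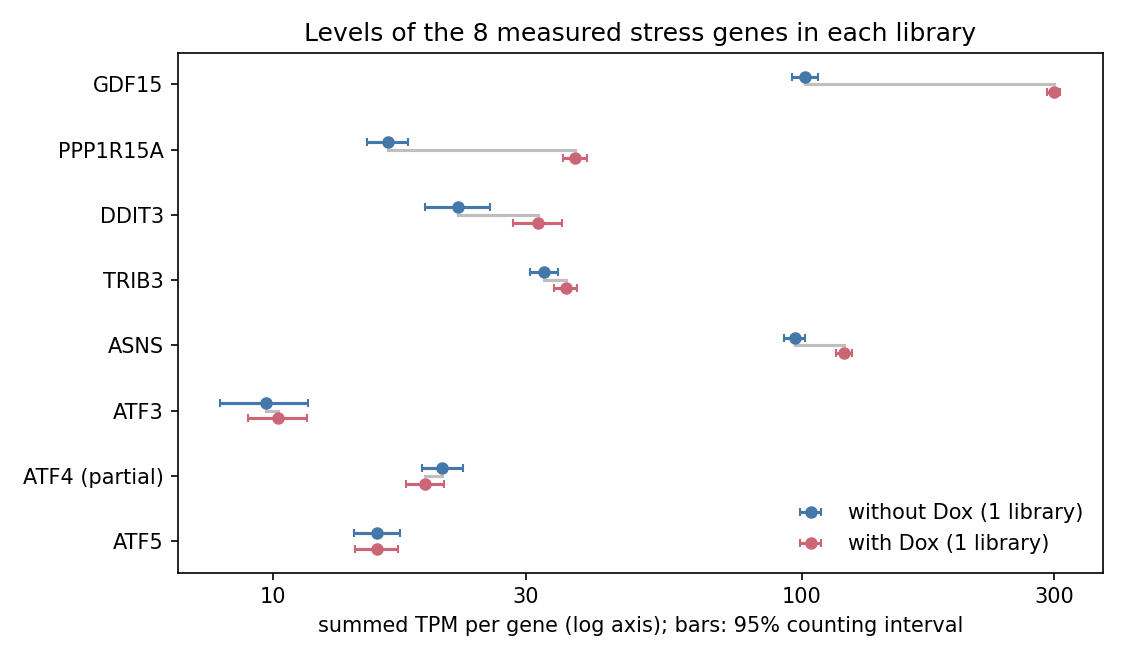
Summed TPM of the 8 stress genes (log axis) in the uninduced (blue) and induced (red) library, 1 library each, with bars for the 95% counting interval. GDF15 (101 and 300 TPM) and PPP1R15A (16.4 and 37.2 TPM) show the widest gaps, while the intervals of TRIB3, ATF3, ATF4 and ATF5 overlap between the libraries. The ATF3 bars are scaled from its transcripts of at least 600 nt and do not cover the error of its whole sum.

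GDF15 (ENSG00000130513, chr19:18374731-18389176, + strand of GRCh38) encodes the secreted stress cytokine. Its level was 101 TPM (95% counting interval 95.8 to 107) in the uninduced library. In the induced library it was 299.9 TPM (291 to 309). The intervals were far apart, and the log2 fold change of 1.55 ranked GDF15 at 70 of the 11582 genes from the top. By level, GDF15 moved from the 88.9th to the 96.6th percentile of these genes. Estimated fragments were 1203 and 4453, a ratio of 2.88 after depth (2.70 to 3.07).

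Of the 5 annotated GDF15 transcripts, 2 carried nearly all of that level. ENST00000252809, of 1200 nt and 2 exons, encodes the full protein of 308 residues and was at 70.6 TPM uninduced and 204 TPM induced. ENST00000595973, of 890 nt, starts upstream at base 18382170 with an extra exon and was at 29.2 and 95.1 TPM. Both were higher in the induced library, with fragment ratios of 2.81 (2.61 to 3.02) and 3.16 (2.75 to 3.64). The full-length transcript held 69.6% of the gene's TPM uninduced and 67.9% induced, while the gene's TPM was 2.96 times as high.

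**Figure D2:**
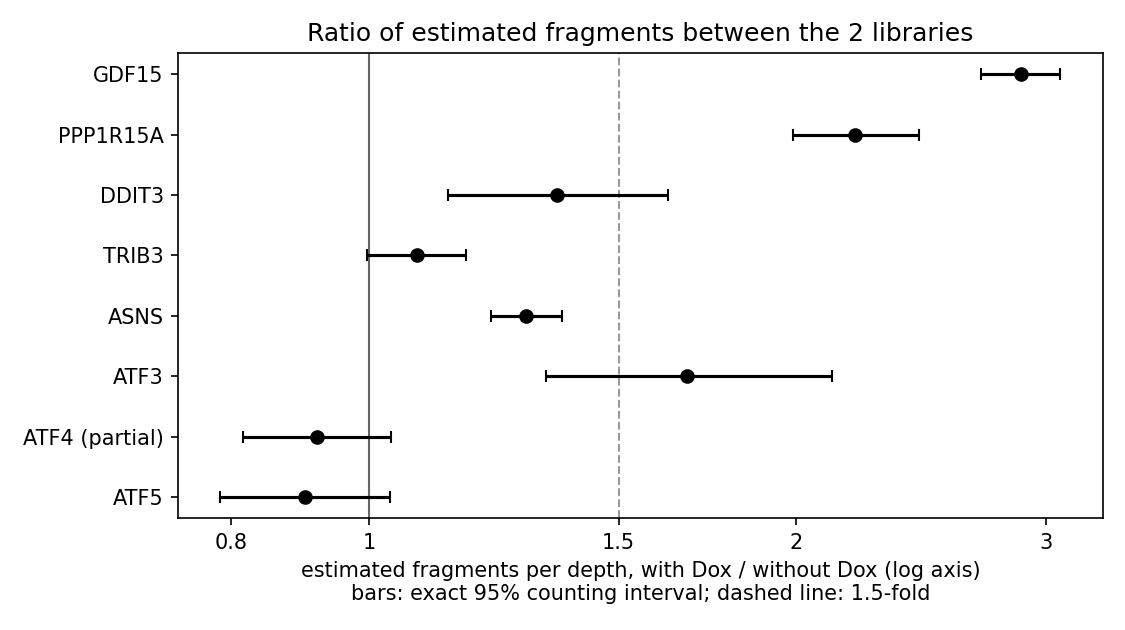
Ratio of estimated fragments, induced over uninduced after scaling by depth (log axis), for the 8 stress genes, with exact 95% counting intervals and a dashed line at 1.5-fold. GDF15 at 2.88 and PPP1R15A at 2.20 lie wholly above the line, and ATF4 and ATF5 straddle 1.

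PPP1R15A (ENSG00000087074, chr19:48872392-48876057, + strand) encodes GADD34, the subunit that directs protein phosphatase 1 to eIF2 and so closes the feedback loop of the response. It stood at 16.4 TPM (15.0 to 17.9) uninduced and at 37.2 TPM (35.3 to 39.2) induced. The log2 fold change was 1.13, at rank 137, and the fragment ratio was 2.20 (1.99 to 2.44). The transcript ENST00000200453, which encodes 674 residues, held nearly all of it, at 15.8 and 36.0 TPM. PPP1R15B, the constitutive partner of the same phosphatase, was at 20.5 and 26.6 TPM.

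DDIT3 (ENSG00000175197, chr12:57516588-57521737, − strand) encodes CHOP, a C/EBP-family factor that ATF4 induces. Its level was 22.3 TPM (19.3 to 25.6) uninduced and 31.7 TPM (28.4 to 35.2) induced, a log2 fold change of 0.49. The fragment ratio was 1.36 (1.14 to 1.62), so the counting interval reaches past 1.5-fold but not down to 1. Transcripts encoding 169 residues carried most of it, at 19.2 TPM uninduced and 27.8 TPM induced, while a transcript for 192 residues was at 2.89 and 2.63 TPM. DDIT3 exons overlap MARS1 on the opposite strand, which was at 103 and 128 TPM, and the strand setting of the libraries is not given in the sources used here, so the part of MARS1 reads in the DDIT3 level was not tested.

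TRIB3 (ENSG00000101255, chr20:362835-397559, + strand) encodes a pseudokinase that binds ATF4 and CHOP and limits the response. It was at 32.6 TPM (30.6 to 34.6) uninduced and 35.7 TPM (33.9 to 37.6) induced. The log2 fold change was 0.13, and the counting interval of the fragment ratio of 1.08 (0.998 to 1.17) includes 1. Nearly all of it came from ENST00000217233, which encodes 358 residues.

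ASNS (ENSG00000070669, chr7:97852118-97872542, − strand) encodes asparagine synthetase. Summed over its transcripts it was at 97.0 TPM (92.6 to 101) uninduced and 120.4 TPM (116 to 125) induced, a log2 fold change of 0.31 at rank 1866. The fragment ratio was 1.29 (1.22 to 1.37). ASNS is annotated with 17 transcripts, and these did not move together. The 3 transcripts for the full protein of 561 residues were at 21.0 TPM uninduced and 41.5 TPM induced, a fragment ratio of 1.92 (1.74 to 2.12). The shorter ENST00000455086, which encodes 478 residues, was at 47.5 and 49.6 TPM, a ratio of 1.02 (0.931 to 1.11). The full-length forms thus went from 21.7% to 34.5% of the gene's TPM and the 478-residue form from 48.9% to 41.2%. ENST00000442734, of 828 nt with no complete coding sequence, was at 9.77 and 1.78 TPM. Salmon shares fragments among transcripts that match equally well, so shifts between transcripts of one gene carry more error than the counting intervals show.

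**Figure D3:**
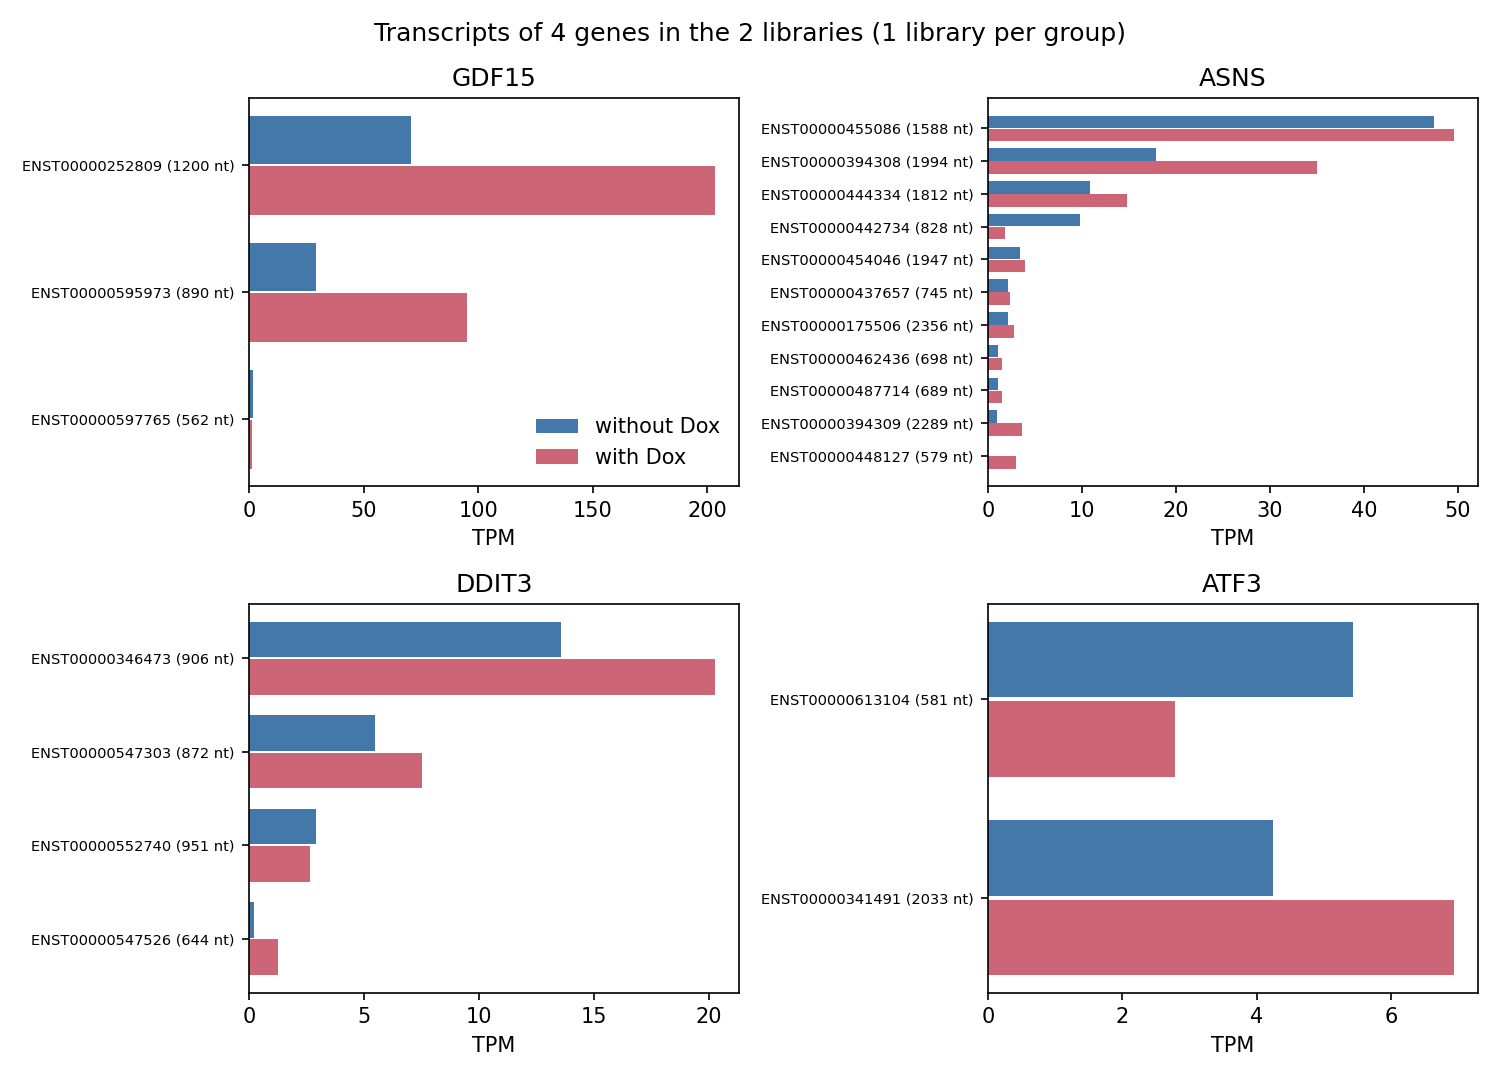
TPM of the transcripts of GDF15, ASNS, DDIT3 and ATF3 in the uninduced (blue) and induced (red) library, with transcript length in nt. Both main GDF15 transcripts are higher in the induced library, whereas in ASNS the 478-residue ENST00000455086 differs little and in ATF3 the short and the long form move in opposite directions.

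ATF3 (ENSG00000162772, chr1:212565334-212620777, + strand) encodes a stress-induced bZIP factor that mostly represses its targets. Its sum was 9.66 TPM (7.94 to 11.6) uninduced and 10.2 TPM (8.94 to 11.6) induced, a log2 fold change of 0.07. These intervals are scaled from transcripts of at least 600 nt, which hold 58.6% of the TPM over both libraries. They are therefore not counting intervals of the whole sum. That sum joins forms that move in opposite ways. ENST00000341491, of 2033 nt, which encodes the full factor of 181 residues, was at 4.23 and 6.94 TPM, a fragment ratio of 1.59 (1.26 to 2.02). ENST00000613104, of 581 nt, which encodes 124 residues, was at 5.43 and 2.79 TPM, and its length is below the 600 nt above which fragments could be estimated. Over the transcripts of at least 600 nt, ATF3 had 110 and 237 fragments, a ratio of 1.68 (1.33 to 2.12), which would put it past 1.5-fold. The level of ATF3 therefore depends on which transcripts are counted.

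ATF4 (ENSG00000128272, chr22:39519695-39522685, + strand), the central factor of the response, could be measured only in part. Its 3 matched transcripts summed to 20.9 TPM uninduced and 19.4 TPM induced, with ENST00000404241 at 16.1 and 13.7 TPM. Between their entries the table lists transcripts that the annotation used here does not assign to a gene, with 497 TPM uninduced and 558 TPM induced. In 99.4% of the genes with several matched transcripts (17578 of 17681) no other gene lies between them in the table. The matched sum is therefore a lower bound on the level of ATF4, and no direction is given for it. ATF5 (ENSG00000169136, chr19:49928702-49933935, + strand), the ATF4 relative that also answers to mitochondrial stress, was at 15.7 TPM in both libraries. Its log2 fold change was 0.00 and its fragment ratio 0.902 (0.786 to 1.04). The 282-residue form held 94.1% of the ATF5 TPM uninduced and 85.8% induced. ATF5 exons overlap NUP62 on the opposite strand, at 27.9 and 31.3 TPM.

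CHAC1, a glutathione-degrading enzyme under ATF4 and CHOP, and SESN2, which restrains mTORC1 when leucine is scarce, yielded no level. For CHAC1 (chr15:40952962-40956519), 3 of its 5 annotated transcripts were in the table and each was listed at 0 in both libraries. A count of 0 on ENST00000444189, of 1204 nt, allows up to 0.223 TPM uninduced and 0.178 TPM induced for that transcript, and the other 2 transcripts were not analysed here. The only annotated transcript of SESN2 was not analysed here. Their paralogues CHAC2 (8.20 and 7.69 TPM), SESN1 (27.7 and 19.1 TPM) and SESN3 (6.10 and 6.68 TPM) were measured.

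Sequence features of the mRNAs of the 8 genes were then counted, on the most abundant matched coding transcript of each gene. The same was done over 10939 genes. For ATF4 that transcript is ENST00000404241. The unassigned transcripts listed between the ATF4 entries hold far more TPM, so its features may not be those of its main mRNA. The genes were chosen by name as members of this response, and upstream reading frames are a known part of it for ATF4. Nothing is therefore read from the comparison of upstream ATGs. At least 1 ATG upstream of the coding sequence was present in 6 of the 8, against 49.5% of all genes, and at least 2 in 5 of the 8, against 28.3%. ATF4 had 6, DDIT3 and TRIB3 had 3 each, PPP1R15A and ATF5 had 2 each and ATF3 had 1. GDF15 and ASNS, with leaders of 32 and 44 nt, had none. Leaders of the other 6 ran from 180 nt in DDIT3 to 773 nt in ATF4, against a median of 171 nt over all genes. The ATG counts were not adjusted for leader length. AU-rich pentamers (ATTTA) after the coding sequence, the kind found in short-lived mRNAs, numbered 5 in GDF15, 3 in ATF3 and 2 each in PPP1R15A and DDIT3. They were absent from the other 4 genes, and 65.4% of all genes had at least 1. The GDF15 trailer is 241 nt, against a median of 863 nt.

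Smaug proteins bind short hairpins with CNGG at the start of the loop, so these were searched with a stem of 5 pairs, G-U pairs included, and up to 3 further loop bases. GDF15 held 3 matches in 1200 nt, all in its coding sequence, which is 2.50 per kb and more than in 97.9% of genes (median 0.55 per kb). DDIT3 held 2 in 906 nt, which is 2.21 per kb and more than in 96.7% of genes. The 3 of GDF15 and 1 of DDIT3 are printed because these genes have the highest densities among the 8, with the CNGG of the loop in capitals and T for U.
GDF15, chr19:18386278-18386294 (+): tgtctCTGGccgaggcg
GDF15, chr19:18388872-18388887 (+): cgacaCCGGggtgtcg
GDF15, chr19:18388873-18388886 (+): gacacCGGGgtgtc
DDIT3, chr12:57516972-57516985 (−): ccagcCCGGgctgg
The second and the third GDF15 matches overlap and describe 1 place in the mRNA, so the density and percentile given for GDF15 count that place more than once. PPP1R15A, the other gene past 2-fold, held none, and 76.8% of all genes held at least 1, so a match is a description of sequence and not a binding site. TRIB3, ASNS, ATF3 and ATF4 held 1 each and ATF5 held 3.

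Lists of genes around the response were then counted, 131 genes in 9 lists, of which 118 were compared. Of them 13 (11.0%) passed 1.5-fold upward and 6 (5.08%) downward, against 5.32% and 3.9% of all genes compared. The median log2 fold change of the 118 was 0.09, against 0.02 for all genes compared. The lists were chosen with earlier results of these data known, so nothing is read from the comparison, here or in the list counts below. Upstream of ATF4, 18 eIF2 kinases, their activators and the subunits of eIF2 and eIF2B were compared, and 13 were higher by any amount. Of the 18, 2 were at least 1.5-fold higher and none was at least 1.5-fold lower. EIF2AK2, the kinase activated by double-stranded RNA, was at 14.8 and 22.9 TPM, and EIF2AK3, the kinase of the endoplasmic reticulum known as PERK, at 2.24 and 8.06 TPM. Transcripts without a gene that are listed between those of EIF2AK3 were at 24.6 TPM uninduced and 17.2 TPM induced, and those between EIF2AK2 transcripts at 8.16 and 2.08 TPM, so neither gene's total is known. EIF2AK4, the kinase that senses uncharged tRNA, was at 57.5 and 39.3 TPM and is named after its values were seen.

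Among targets of ATF4 outside the 10 genes, only part of the lists differed. Of all genes compared, 53.0% were higher by any amount. Of 19 other ATF4 and CHOP targets, 15 were higher in the induced library and 5 were past 1.5-fold, with none lower by that much and a median of 0.30. These were GADD45B, a growth arrest protein (10.3 and 23.5 TPM), the autophagy receptor SQSTM1 (42.3 and 80.4 TPM), the secreted STC2 (37.0 and 70.3 TPM) and KLHL24 (15.0 and 26.2 TPM). GADD45A, at 28.4 and 43.1 TPM, is the fifth. Of 11 amino acid transporters, SLC38A2, the sodium-coupled neutral amino acid carrier, was higher at 732 and 1593 TPM, a fragment ratio of 2.09 (2.07 to 2.11), and SLC43A1 was lower at 30.7 and 19.3 TPM.

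None of the 13 enzymes of amino acid and one-carbon synthesis passed 1.5-fold, and their median was 0.07. The most different were MTHFD2 of the mitochondrial folate pathway, at 64.6 and 90.7 TPM, and PHGDH, the first enzyme of serine synthesis, at 200 and 159 TPM. MTHFD2 has 49.5% of its TPM on transcripts of at least 600 nt, and over these its fragment ratio was 1.03. Of 13 aminoacyl-tRNA synthetases and tRNA exporters 10 were higher, with a median of 0.23 and none past 1.5-fold, from YARS1 at 98.8 and 77.3 TPM to TARS1 at 81.3 and 121 TPM. ASNS, with a log2 fold change of 0.31, lay within the range of both lists.

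**Figure D4:**
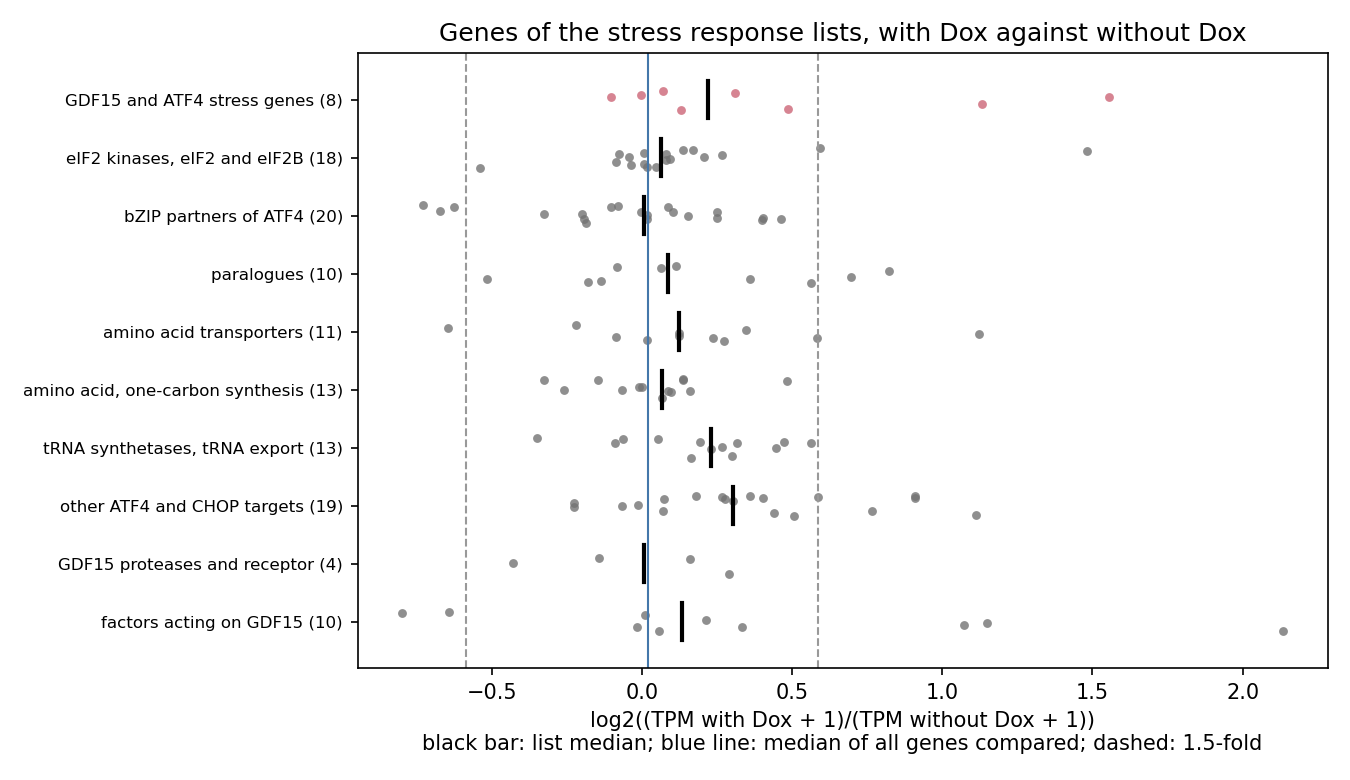
Log2 fold change (TPM + 1, induced over uninduced) of each compared gene in the GDF15 and ATF4 group and in 9 lists, with the list median as a black bar, the median of all genes as a blue line and 1.5-fold as dashed lines. Medians of the lists lie between 0.01 and 0.30, and in the top row GDF15 at 1.55 and PPP1R15A at 1.13 stand outside the other 6 genes.

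The partner factors showed no higher member past 1.5-fold, with 3 of 20 at least 1.5-fold lower: CEBPA, the liver C/EBP factor (35.6 and 21.1 TPM), ATF6B (26.2 and 16.1 TPM) and DBP (8.69 and 5.27 TPM). Their median was 0.01. Among 10 compared paralogues of the 10 genes, TRIB1 (23.3 and 42.1 TPM) and the activin subunit INHBE (6.77 and 11.6 TPM), itself a liver stress gene, were at least 1.5-fold higher. None was lower by that much. Of 10 factors known to act on GDF15, 7 were higher by any amount and 3 by at least 1.5-fold. These 3 were EGR1 at 2.99 and 16.5 TPM, KLF6 at 37.0 and 83.3 TPM and KLF4 at 0.293 and 1.72 TPM. Of the same 10, 2 were at least 1.5-fold lower, among them the bile acid receptor NR1H4 at 40.6 and 25.7 TPM. On transcripts of at least 600 nt, however, the fragment ratio of NR1H4 was 0.671, just short of 1.5-fold. Of the proteases that process GDF15 and its receptor, 4 of 7 were compared and none passed 1.5-fold. PCSK6 was at 55.5 and 68.0 TPM and MMP14 at 109 and 80.5 TPM, and the receptor genes GFRAL and RET were listed at 0 in both libraries. Of the MMP14 level, 72.4 TPM uninduced and 54.2 TPM induced were on the retained-intron transcript ENST00000547074. Transcripts of at least 600 nt hold 32.2% of the MMP14 TPM. Over these the MMP14 fragment ratio was 0.668 (0.623 to 0.716), just short of 1.5-fold lower.

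Genes that resembled GDF15 in this contrast were taken as the 5 protein-coding genes nearest to it in log2 fold change among 1035 with a mean TPM within 2-fold of its own. They were the kinase PIM1 (74.7 and 194 TPM), the signalling inhibitor SPRY1 (82.4 and 160 TPM), ID2 (181 and 347 TPM), the lipid droplet protein PLIN2 (190 and 351 TPM) and the galectin LGALS1 (128 and 236 TPM). Only 0.053% of the LGALS1 TPM is on transcripts of at least 600 nt, so its difference could not be checked in fragments. Log2 fold changes ran from 0.88 in LGALS1 to 1.36 in PIM1, all below the 1.55 of GDF15. At this level only SAMD4B and ANKRD1 had a larger log2 fold change, and ANKRD1 is named after its values were seen. The likeness rests on 2 libraries and says nothing of shared control.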

How the data were processed

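The authors deposited 1 table of TPM values for 184844 Ensembl transcripts in 2 libraries of polyadenylated HepG2 RNA. Trimmomatic, Salmon and the build GRCh38.p13 are named per the submitters' processing notes. The sources used here give no version, option, strand setting or annotation release for them. Identifiers were matched without version to GENCODE release 29 (161798 transcripts, 93.3% of the TPM in each library). The other 23046 could be given no gene, and fragments on them are missing from a gene's sum. The 10 genes, the gene lists and the motifs were chosen with earlier results of these data known.

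Genes with a mean of at least 1 TPM were compared by log2 with a pseudocount of 1 TPM, and 1.5-fold was counted. Besides the 10 genes and SAMD4B, the text names in each list up to 4 genes past 1.5-fold in each direction, or the highest and the lowest where none passed, and the 5 genes nearest to GDF15. A few items taken by the rule are not reported here. Other names were taken after their values were seen. With 1 library in each group no test was made. Depth was estimated from steps in the low TPM values of single-transcript genes of at least 600 nt. Of values under 5.5 fragments, 77.5% (500 of 645) uninduced and 80.7% (524 of 649) induced lay within 0.1 of a whole number. Since the steps were fitted to these values, the share is no independent check. Ratios of fragments on transcripts of at least 600 nt carry exact Clopper-Pearson 95% intervals. Levels carry Poisson ones scaled from the same fragments, and both cover counting error only. The depth estimate and the recovery of genes past 1.5-fold were tried on simulated counts, which leave out Salmon's sharing of fragments among transcripts. Fragment ratios and intervals were not tried there. Python 3.11.15, pandas 2.3.3, numpy 2.4.6, scipy 1.17.1 and matplotlib 3.10.9 were used. The alternatives changed the pseudocount, the minimum TPM, the transcripts summed, the scaling and the motif. Leaving out genes outweighed by transcripts without a gene was added after seeing the data.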

Additional observations from a re-analysis of the deposited data

How the results depend on the processing

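No paired analysis was possible because each group has 1 library, and for the same reason no library could be left out. Under 8 alternatives the log2 fold change of GDF15 ranged from 1.51 to 1.57, that of DDIT3 from 0.42 to 0.55 and that of TRIB3 from 0.11 to 0.16. PPP1R15A ranged from 0.98, at a pseudocount of 5 TPM, to 1.15. ASNS ranged from 0.06, on its most abundant transcript alone, to 0.37, and ATF3 from 0.01 to 0.74, the highest in estimated fragments over long transcripts (600 nt or more), so these 2 values depend on the transcripts counted. With the longer composite element TGATGCAAT, 0 of the 10 genes matched instead of 3. The longer element was in 0.293% of all genes, against 4.46% for the shorter one, so this 0 says little. Of all genes compared, 616 were at least 1.5-fold higher, against 235 at a pseudocount of 5 TPM and 344 at a minimum mean of 5 TPM. Those at least 1.5-fold lower numbered 452, against 174 and 262. Among the 18 list counts, 164 of 180 alternatives stayed within 1.5 times the value reported. Many of these counts were 0 to begin with, where staying the same says little. The other 16 alternatives moved 8 of the 18 counts, to values from 0 to 2, and 5 of the 16 were at a pseudocount of 5 TPM. Genes outweighed by transcripts without a gene numbered 124 of the 11582, and without them 1 of 17 eIF2 kinases and subunits was at least 1.5-fold higher. Depth limits genes of few fragments, such as KLF4 with 8 uninduced and 57 induced (ratio 5.55, 2.63 to 13.5).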
